A study of Mus musculus with 12 samples.

Results

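The expression of 8 genes of the MHC class II route of antigen presentation was described in mouse liver across 12 arrays, 1 for each mouse. They were H2-Aa, H2-Ab1, H2-Eb1, H2-DMa, H2-DMb1, Cd74, Ciita and Ctss, a set named with earlier results of these data known; no threshold on a value chose them. A gene was measured by the probesets that the platform annotation assigns to it alone, and by the brightest of these where there were several. Of the 8 genes, 7 had such a probeset and 6 lay above the filter on dim probesets, among 11899 genes tested in all. Ciita lay below the filter, and the 2 probesets that list H2-DMb1 also list its neighbour H2-DMb2, so no value is given for H2-DMb1.

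The mice were C57BL/6 males from a commercial breeder, fed and watered freely under equal hours of light and dark. In the control group 6 mice received no antibiotic. In the penicillin group 6 mice received penicillin at low dose in the drinking water, begun after weaning, and livers were taken after 7 weeks of the intervention. No genetic alteration is named for either group, and the labels used here state no age, dose or cage. The study asked how antibiotics below the therapeutic dose act on young mice, their gut bacteria and their body fat.

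MHC class II molecules show peptides from proteins that a cell has taken up to CD4+ T cells. An alpha and a beta chain assemble around the invariant chain, encoded by Cd74, which occupies the peptide groove. Cathepsin S, encoded by Ctss, trims the invariant chain in the endosome, and the H2-DM dimer then exchanges the remaining fragment for peptide. Ciita encodes the coactivator that switches these genes on, and interferon gamma induces it in many cells. In liver the class II molecules are known from Kupffer cells, dendritic cells, B cells and sinusoidal endothelium, not from resting hepatocytes. C57BL/6 mice make only the H2-A dimer at the cell surface, since a deletion silences their H2-Ea gene, the partner of H2-Eb1.

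Class II promoters carry an X box, bound by the RFX factors, upstream of a Y box, bound by NF-Y, to which Ciita attaches. Promoter sequences from RefSeq (GRCm38.p6) were at hand for 5 of the 8 genes: H2-Aa, H2-Eb1, H2-DMa, H2-DMb1 and Ctss. They are shown to set the class II chain genes H2-Aa and H2-Eb1 and the exchanger gene H2-DMb1 beside the protease gene Ctss. Each run is the 150 bases before the start of the gene, 5′ to 3′ on the gene's own strand. Capitals mark an X box core (GNAACT) followed by a Y box core (GATTGG), or an interferon response motif (GAAA, any 2 bases, GAAA).
H2-Aa, chr17:34287824-34287973, minus strand: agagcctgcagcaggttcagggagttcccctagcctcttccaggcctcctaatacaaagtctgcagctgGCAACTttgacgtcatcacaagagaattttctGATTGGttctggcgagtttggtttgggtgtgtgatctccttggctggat
H2-Eb1, chr17:34305717-34305866, plus strand: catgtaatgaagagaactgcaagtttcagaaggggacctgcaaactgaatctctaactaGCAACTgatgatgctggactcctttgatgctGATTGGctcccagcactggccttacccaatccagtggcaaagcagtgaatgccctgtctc
H2-DMb1, chr17:34153041-34153190, plus strand: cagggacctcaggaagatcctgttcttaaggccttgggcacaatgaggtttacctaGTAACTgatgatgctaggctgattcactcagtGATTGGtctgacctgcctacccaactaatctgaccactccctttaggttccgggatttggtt
Ctss, chr3:95526636-95526785, plus strand: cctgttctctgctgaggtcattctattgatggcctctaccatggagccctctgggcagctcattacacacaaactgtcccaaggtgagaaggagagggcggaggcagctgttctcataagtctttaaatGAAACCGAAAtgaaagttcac

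In H2-Aa 26 bases lay between the X box core and the Y box core, in H2-DMb1 26 and in H2-Eb1 25. The Y box core began 49 bases before the start of H2-Aa, 60 before that of H2-Eb1 and 62 before that of H2-DMb1. Over the 32851 promoters of the table, searched in the 250 bases before the start on both strands, 37.3% held the X box core and 14.6% the Y box core. The pair on 1 strand, X first and at most 40 bases apart, was in 0.572%. Neither promoter of H2-DMa in the table held the pair. The interferon response motif, 21 bases before the start of Ctss, was in 2.98% of promoters. The cores were chosen with these promoters known, and a match is a description of letters.

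The arrays were alike, with correlations of 0.980 to 0.997 between any pair over the genes tested. Control 1 and control 3 stood apart from the rest. They were the closest pair over all genes, at 0.997, and with control 5 they had high immediate early genes, which rise within minutes of many stimuli. The mean level of 13 such genes, as the log2 deviation from the mean of the 12 arrays, was 2.09 in control 1, 2.18 in control 3 and 1.52 in control 5. It was between -0.93 and -0.17 in the other 9 arrays. The differences of the members tested and the medians of the gene lists are therefore given also without control 1 and control 3. This pair was set apart with the class II values known, and leaving out low controls raises the control mean by construction. Intervals, p and counts without the pair are thus descriptions. The hepatocyte genes Alb and Ttr were high in both groups. They stood at 14.97 ± 0.03 and 14.72 ± 0.02 in log2 intensity with penicillin and at 15.00 ± 0.03 and 14.72 ± 0.03 in controls (SD, n = 6). Not every hepatocyte gene was as even: Ass1 was at 7.40 ± 0.44 with penicillin and at 6.93 ± 1.03 in controls.

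In penicillin livers 5 of the 6 class II genes tested had higher mean levels than in control livers, by 0.28 to 0.48 on the log2 scale, and Ctss did not. The 4 H2 genes were lowest of all arrays in control 1 and control 3, and without these the 5 differences were 0.12 to 0.20. No member passed the test: limma with Benjamini-Hochberg adjustment over all genes called 0 of the 6 members and 0% of all genes at an adjusted p of 0.05. At an unadjusted p under 0.05, 4 of the 6 members were higher and 0 lower, beside 4.33% of all genes higher and 3.66% lower. In 0 of the 6 did every penicillin array lie above every control, beside 0.261% of all genes. The median difference over the 6 members was 0.37, beside 0.0064 over all genes tested, of which 52.8% were higher. In RNA of whole liver, fewer cells of a type and less RNA per cell cannot be told apart.

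**Figure D1:**
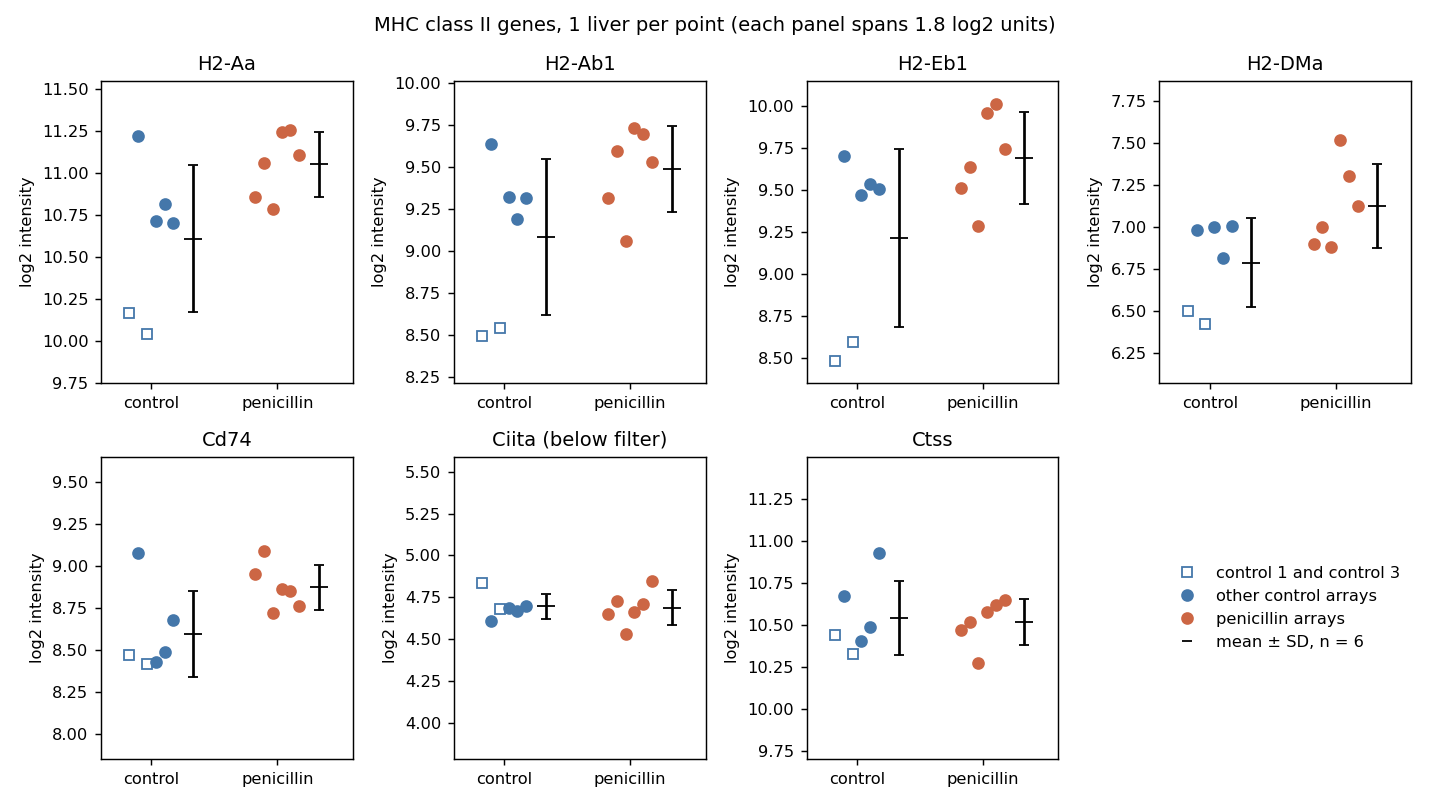
Log2 intensity of the 7 measured class II genes in each liver, control on the left and penicillin on the right of each panel, with the mean and SD of each group of 6; open squares are control 1 and control 3. In H2-Aa, H2-Ab1, H2-Eb1 and H2-DMa the open squares lie under all other points, and in every panel the groups overlap.

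H2-Aa encodes the alpha chain of the H2-A molecule. On its brightest probeset (1435290_x_at) the control arrays had a lowest log2 intensity of 10.04, a median of 10.71 and a highest of 11.22. The penicillin arrays ran from 10.78 over a median of 11.08 to 11.25. All 6 penicillin arrays lay above the control median, but control 2, at 11.22, exceeded 4 of them, so the groups overlapped. The control mean was 10.61 ± 0.44 and the penicillin mean 11.05 ± 0.19 (SD, n = 6), and the difference was 0.44 (SE 0.18, 95% interval 0.06 to 0.82; limma adjusted p = 0.585), or 1.36-fold. Control 1 was at 10.16 and control 3 at 10.04, whereas the other controls lay between 10.70 and 11.22. Without them the difference was 0.19 (SE 0.13, 95% interval -0.09 to 0.47; adjusted p = 0.901).

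H2-Ab1 encodes the beta chain that pairs with H2-Aa. The probeset 1450648_s_at gave 8.50 to 9.64 in the control arrays, with a median of 9.26. In the penicillin arrays it gave 9.06 to 9.73, with a median of 9.57. Control 1, at 8.50, and control 3, at 8.54, were the lowest of the 12, and penicillin 3, at 9.06, came next. The difference was 0.40 (SE 0.19, 95% interval -0.01 to 0.82; limma adjusted p = 0.647), and 0.12 without control 1 and control 3 (95% interval -0.18 to 0.42). The other controls, at 9.37 ± 0.19 (SD, n = 4), lay close to the penicillin mean of 9.49.

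H2-Eb1 encodes the beta chain of the H2-E molecule, which this strain does not assemble. It spread most of the members among controls, with 9.21 ± 0.53 against 9.69 ± 0.27 with penicillin (SD, n = 6). The control arrays ran from 8.48 over a median of 9.49 to 9.70, and the penicillin arrays from 9.29 over 9.69 to 10.01. Control 1 and control 3 averaged 8.54, and the other 4 controls lay within 9.47 to 9.70. The difference of 0.48 (SE 0.22, 95% interval 0.01 to 0.95; limma adjusted p = 0.621) was 0.14 without the 2 low arrays (SE 0.13, 95% interval -0.15 to 0.43).

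H2-DMa encodes the alpha chain of the peptide exchanger. The control arrays had 6.42, 6.90 and 7.00 as lowest, median and highest, and the penicillin arrays 6.88, 7.06 and 7.52 (1422527_at). Penicillin 4, penicillin 5 and penicillin 6 lay above every control, and the other penicillin arrays lay within the control range. The difference was 0.33 (SE 0.14, 95% interval 0.04 to 0.63; limma adjusted p = 0.588). It was 0.17 without control 1 and control 3 (95% interval -0.10 to 0.44).

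Cd74 encodes the invariant chain. Its control arrays ran from 8.41 over a median of 8.48 to 9.08, and its penicillin arrays from 8.72 over 8.86 to 9.09 (1425519_a_at). Here the low controls were not control 1 and control 3 alone: control 4, at 8.43, and control 5, at 8.48, were equally low, and all 6 penicillin arrays lay above 5 of the 6 controls. Only control 2, at 9.08, was within the penicillin range. The difference was 0.28 (SE 0.11, 95% interval 0.04 to 0.52; limma adjusted p = 0.584). Without control 1 and control 3 it was 0.20 (SE 0.12, 95% interval -0.07 to 0.48; adjusted p = 0.894).

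Ctss, the protease that trims the invariant chain, gave 10.33 to 10.93 in the control arrays, with a median of 10.46. The penicillin arrays gave 10.27 to 10.65, with a median of 10.55 (1448591_at). The highest array was control 6 and the lowest penicillin 3, and the groups covered each other. The difference was -0.02 (SE 0.10, 95% interval -0.24 to 0.19; limma adjusted p = 0.970), and -0.10 without control 1 and control 3. Markers of Kupffer cells and macrophages, which make much cathepsin S, had their highest mean deviation in control 6, at 0.41, and their lowest in penicillin 3, at -0.27. Their part in the level of Ctss was not tested.

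Ciita, the coactivator, was too dim to be tested. Its brightest probeset (1421211_a_at) stood at 4.61 to 4.84 in controls, with a median of 4.69, and at 4.53 to 4.85 with penicillin, with a median of 4.69. The filter was at 4.73, and detection calls, which would tell these values from background, were not used here. Fitted without the filter, the difference was -0.0095 (SE 0.06, 95% interval -0.14 to 0.12; limma adjusted p = 0.989). On this probeset control 1 had the highest value of the controls, 4.84. The other Ciita probesets, at means of 4.60 (1421210_at) and 3.76 (1447075_at), also lay below the filter. Their highest controls were control 4, at 4.75, and control 2, at 3.85. At such levels the order of the arrays is not read as a difference in Ciita.

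Across the 4 H2 genes the 2 low arrays gave 1 repeated pattern. Control 1 and control 3 were the 2 lowest of the 12 arrays for H2-Aa, H2-Ab1, H2-Eb1 and H2-DMa, which is 4 of the 6 members tested, beside 6.5% of all genes. This pair of arrays was set apart with these values known, so the count and all values without the pair are descriptions. Their mean differed from that of the other controls by -0.76 in H2-Aa, -0.85 in H2-Ab1, -1.01 in H2-Eb1 and -0.49 in H2-DMa. In Cd74 the same gap was -0.23 and in Ctss -0.24. Among the penicillin arrays, penicillin 1 and penicillin 3 were the lowest in each of the 4 H2 genes. Leaving out control 1 alone or control 3 alone was enough to bring the members at an unadjusted p under 0.05 from 4 of 6 to 0 of 6. The count was 1 without penicillin 4 or penicillin 5, 2 without penicillin 2, 3 without control 5 or penicillin 6, and 5 without control 2, control 6 or penicillin 3. Without control 1 and control 3 it was 0 of 6, beside 2.64% of all genes higher and 2.66% lower. The median difference was then 0.15. When control 5 was left out as well it was 0.13, and 0 of 6 members had such a p, beside 1.85% of all genes higher and 2.25% lower.

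**Figure D2:**
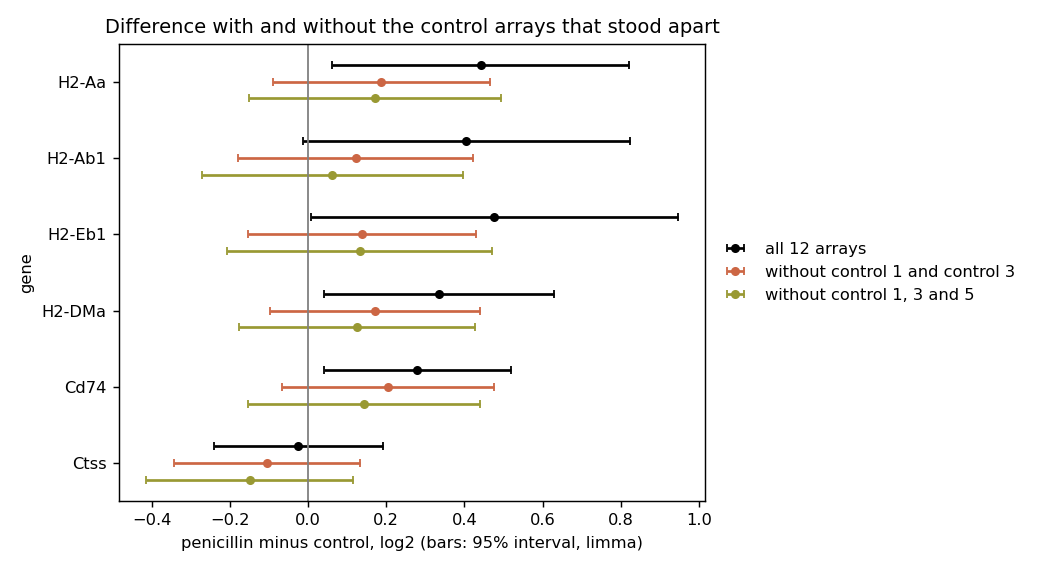
Penicillin minus control difference in log2 intensity for the 6 genes tested, with its 95% interval, from all 12 arrays, without control 1 and control 3, and without control 1, control 3 and control 5. Without the 2 low arrays every interval spans 0, and 5 of the 6 differences stay above 0. The 2 arrays were chosen with these values known.

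Members were compared in pairs. Since control 1 and control 3 lie apart, correlations between members were taken over the other 10 arrays, for 15 pairs. The 6 pairs among H2-Aa, H2-Ab1, H2-Eb1 and H2-DMa had Pearson's r of 0.693 to 0.911 (permutation adjusted p from 0.00262 to 0.0419) and Spearman's rho of 0.527 to 0.927 (permutation adjusted p from 0.0054 to 0.182). Without the 2 of these arrays farthest from the median of the gene listed first in each pair, r was 0.418 to 0.830. Arrays far out in the other gene of the pair stayed in. Within the 6 penicillin arrays alone r was 0.820 to 0.980. Cd74 paired with these genes gave r of 0.225 to 0.658 (permutation adjusted p from 0.0946 to 0.616; rho 0.212 to 0.636, permutation adjusted p from 0.136 to 0.558), and within the penicillin arrays -0.086 to 0.368. Ctss gave r of 0.186 to 0.429 with the other members (permutation adjusted p from 0.366 to 0.616; rho 0.248 to 0.552, permutation adjusted p from 0.182 to 0.527). Within the penicillin arrays, however, r of Ctss was 0.856 with H2-Aa, 0.882 with H2-Ab1, 0.868 with H2-Eb1, 0.654 with H2-DMa and 0.173 with Cd74. Within the 6 control arrays, control 1 and control 3 included, r of Ctss with the other members was 0.531 to 0.640. Ctss was thus closer to the H2 genes within the penicillin arrays than over the 10. Whether these ranges differ from each other was not tested.

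Probesets of the same gene gave the same picture, with 1 exception. H2-Aa had 4 probesets and H2-Ab1 had 3, all above the filter, and in each of them control 1 and control 3 were the lowest arrays. The differences ran from 0.33 to 0.44 over the probesets of H2-Aa and from 0.34 to 0.48 over those of H2-Ab1. The dimmer probeset of H2-DMa (1459872_x_at), at a mean of 5.53, disagreed with the brighter: it differed by -0.05 (SE 0.14), and its lowest arrays were control 4 and penicillin 1. Most of these probeset names carry suffixes that mark probes shared between transcripts, and close relatives may add to their signal.

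**Figure D3:**
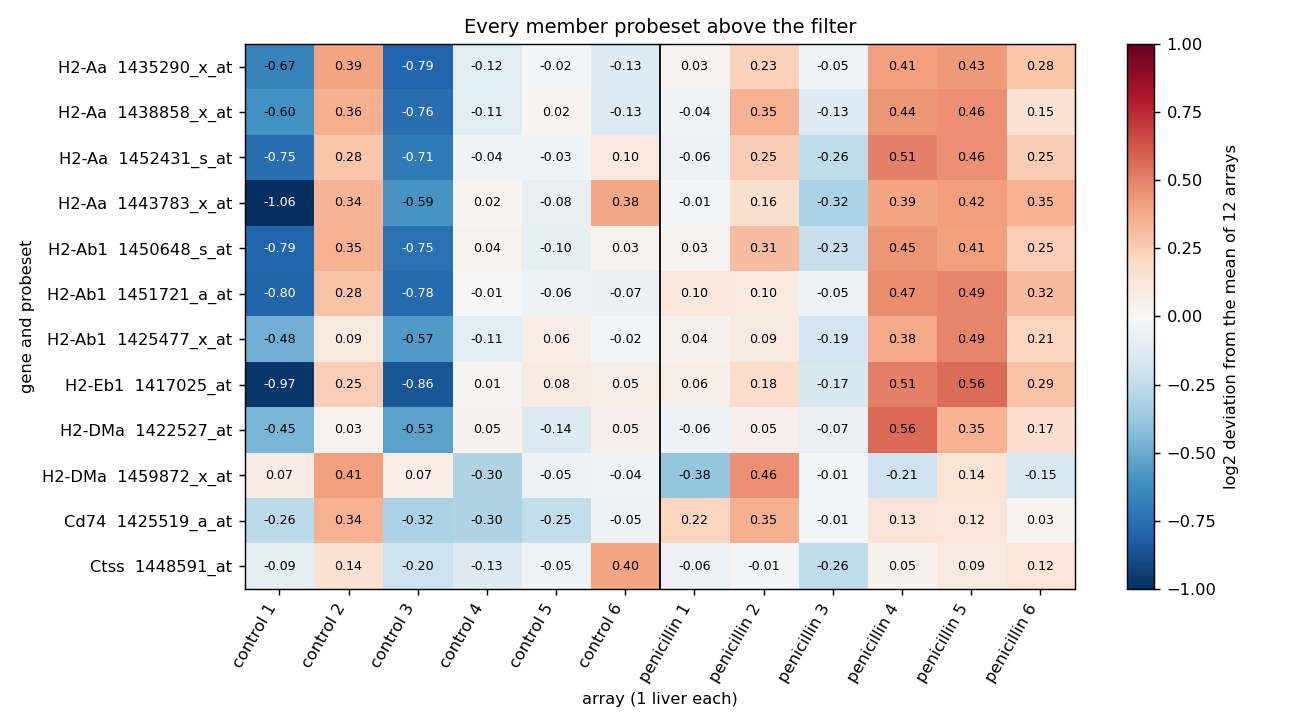
Log2 deviation of each member probeset above the filter from its mean over the 12 arrays, with arrays in columns and the value printed in each cell. The columns of control 1 and control 3 are low in all probesets of H2-Aa, H2-Ab1 and H2-Eb1 and in the brighter probeset of H2-DMa, and not in the dimmer one of H2-DMa, where both are at 0.07.

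Most of the other genes tested of the class II machinery, many of which also serve other routes, were slightly lower with penicillin, by amounts that did not pass the test. Of 22 further genes listed, 18 were tested, and H2-Oa, H2-Ob, H2-DMb2 and Marchf1 were not. With penicillin 4 were higher, H2-Ea by only 0.0002, and 14 lower, beside 52.8% of all genes higher. The median was -0.04, and 0 passed. The median was -0.06, with 4 higher, without control 1 and control 3. The list held the lysosomal proteases, the reductase Ifi30, the RFX and NF-Y subunits that bind the class II promoters, and 2 ubiquitin ligases. The smallest p belonged to Creb1, a factor of the class II promoter, with a difference of -0.17 (SE 0.06; limma adjusted p = 0.546), followed by the NF-Y subunit Nfya at -0.18 (SE 0.11). These were -0.15 and -0.03 without control 1 and control 3. Ifi30, which reduces disulfide bonds in antigens, differed by 0.07 (SE 0.07). Among the RFX subunits the differences were 0.07 for Rfx5, -0.17 for Rfxank and -0.02 for Rfxap, none larger than its standard error. Rfx5 was the only gene of this list whose lowest arrays were control 1 and control 3, at 6.66 and 6.61, against 6.69 to 7.58 in the other 10.

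H2-Ea, the gene silenced in this strain, had 3 probesets. One pair, at means of 3.18 and 2.85, lay far below the filter. The third (1422891_at) stood at 7.10 ± 0.08 in controls and 7.10 ± 0.18 with penicillin (SD, n = 6), with control 1 at 7.14 and control 3 at 7.21, so it did not follow H2-Eb1. Which transcripts these probes detect was not tested.

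Genes of MHC class I presentation, which shows peptides from inside the cell, had their lowest mean deviation in the same 2 arrays. Of 16 listed, 15 were tested: 12 were higher and 3 lower with penicillin, with a median of 0.09. At an unadjusted p under 0.05, 3 of the 15 were higher, beside 4.33% of all genes. Tap1, a chain of the peptide transporter, had a control mean of 7.55 ± 0.30 and a penicillin mean of 7.99 ± 0.28 (SD, n = 6; difference 0.45, SE 0.15, limma adjusted p = 0.567). Psmb9, an immunoproteasome subunit, differed by 0.44 (SE 0.18, limma adjusted p = 0.592). Nlrc5, the class I counterpart of Ciita, was higher by 0.34 (SE 0.18), while the class I heavy chain H2-K1 differed by 0.06 and B2m, its light chain, by 0.05. For 6 of the 15 genes control 1 and control 3 were the lowest arrays, beside 6.5% of all genes. Tap1, for example, was at 7.29 and 7.25 in them. Without these arrays the median was -0.01, with 7 of 15 higher, and Tap1 differed by 0.31 (SE 0.16).

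The mean deviation of genes of interferon gamma signalling and its targets was also lowest in control 1, at -0.36, and control 3, at -0.38. Of 18 listed, 15 were tested, of which 11 were higher and 4 lower, with a median of 0.08. Higher at an unadjusted p under 0.05 were 3 of the 15, beside 4.33% of all genes. Gbp6, a guanylate binding protein, had a control mean of 7.15 ± 0.61 and a penicillin mean of 8.08 ± 0.52 (SD, n = 6; difference 0.93, SE 0.29, limma adjusted p = 0.523). The chemokine Cxcl9 differed by 0.85 (SE 0.30, limma adjusted p = 0.570). Control 1 and control 3 were the lowest arrays for 8 of the 15 genes, beside 6.5% of all genes. Others of the list went the other way in them. The receptor gene Ifngr2 had its highest values of all arrays there, at 7.13 and 7.21. Irf8 stood at 6.65 and 6.52, against 5.90 to 6.62 in the other arrays. Cxcl10, at 6.85 and 7.18, lay within the range of the other arrays. Control 2, high in H2-Aa, H2-Ab1 and Cd74, was also high here, with a list mean of 0.35 against 0.39 in penicillin 4, the highest. Without control 1 and control 3 the median was 0.02, and Gbp6 differed by 0.66 (SE 0.30). Ifng was below the filter.

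The genes whose levels most resembled the mean of the 6 members across the 12 arrays were Igtp (Pearson's r 0.961) and Irgm2 (0.960), both GTPases induced by interferon gamma. They were followed by Sh3tc2 (0.944), Gbp3 (0.931), Zfp866 (0.924), Zbtb44 (0.919), Rtp4 (0.918), Samd9l (0.917), Gtf3c3 (0.916) and Xaf1 (0.915). These 10 were picked for their r, so it is a description, and the points share the 2 low arrays. Over the other 10 arrays their r ran from 0.680 for Zfp866 to 0.932 for Igtp. In all 10 genes control 1 and control 3 were the lowest arrays, beside 6.5% of all genes. The choice by r favours this, since the members' mean is itself lowest in these arrays, so the count is no further result. Igtp was at 8.93 and 8.77 in them, at 9.29 to 10.21 in the other controls and at 9.56 to 10.45 with penicillin, a difference of 0.62 (SE 0.23, limma adjusted p = 0.571). Igtp differed by 0.34 (SE 0.21) without control 1 and control 3.

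Markers of the cells that carry class II moved with the low arrays only in part. Of 8 genes of leukocytes in general, all were tested, and their mean deviation was -0.21 in control 1 and in control 3, but also -0.20 in penicillin 1 and -0.19 in penicillin 3. Their summed intensity ran from 1439 to 2115 in controls and from 1497 to 1868 with penicillin. The pan-leukocyte gene Ptprc differed between the groups by -0.06 and Coro1a by 0.05. With all arrays 4 of the 8 were higher with penicillin (median -0.01), and without control 1 and control 3 0 of 8 (median -0.10). Of 13 markers of B and plasma cells, 7 were tested, with mean deviations of -0.16 in control 1, -0.13 in control 3, -0.13 in control 4 and -0.17 in penicillin 3. Their sum ran from 550 to 1122 in controls, at 550 in control 1 and 562 in control 3, and from 530 to 1202 with penicillin. The median difference of the 7 was -0.08, and 0.01 without control 1 and control 3. With all arrays 3 of these 7 were higher and 4 lower with penicillin. The defining marker Cd79a was below the filter, at 4.31 in controls and 4.32 with penicillin. Cd79b differed by 0.28 (SE 0.16), and by 0.09 without control 1 and control 3. These 2 arrays were its lowest, which held for 1 of the 7. The part of these cells in the class II levels was not tested.

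As a mean over each list, markers of myeloid and endothelial cells were not lowest in control 1 and control 3. By gene, these were the lowest arrays for 1 of 6 dendritic cell markers tested (Flt3) and 1 of 14 macrophage markers (Cd5l). The count was 0 of 9 for endothelial markers, beside 6.5% of all genes. Of 12 dendritic cell markers, 6 were tested. Their deviation was -0.05 in control 1 and in control 3 and lowest in penicillin 3, at -0.23, and their sum ran from 270.1 to 346 in controls and from 251 to 336 with penicillin. The median difference was 0.08, and 0.01 without control 1 and control 3. Itgax was below the filter, and Flt3 stood at 5.21 in controls and 5.22 with penicillin. All 14 markers of Kupffer cells and macrophages were tested: 3 were higher and 11 lower with penicillin, with a median of -0.07, the opposite sign to the class II members. Leaving out control 1 and control 3 gave a median of -0.14, with 1 higher. Their deviation was -0.10 in control 1 and in control 3, within the range of the other controls, and the sum ran from 10763 to 15672 in controls and from 10126 to 12925 with penicillin. Clec4f, which marks Kupffer cells, differed by -0.15 (SE 0.08) and Vsig4 by -0.07. The 9 endothelial markers had deviations of -0.10 and -0.09 in these 2 arrays and of -0.17 in penicillin 1, with sums from 4532 to 5306 in controls and from 4296 to 4864 with penicillin. The median difference was -0.09 with all arrays and also without control 1 and control 3. Stab1 and Stab2 differed by 0.01 and -0.09.

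Immediate early genes and class II genes did not move together in every array. Control 5, with an immediate early deviation of 1.52 and Fos at 11.85, had a class II deviation of -0.08, equal within 0.01 to that of control 4, at -0.07, where the immediate early deviation was -0.84. In control 1 and control 3, Fos stood at 11.29 and 11.33, and the class II deviations were -0.54 and -0.58. Fos itself differed by -3.03 between the groups (SE 0.91, limma adjusted p = 0.511) and Klf6 by -0.75 (SE 0.14, adjusted p = 0.265). Without control 1 and control 3 Fos differed by -1.99 and Klf6 by -0.63, and without control 5 as well by -0.77 and -0.43. Of the 13 immediate early genes tested 12 were lower at an unadjusted p under 0.05, beside 3.66% of all genes, with a median of -1.23. This was 2 of 13 without control 1 and control 3, beside 2.66% of all genes, with a median of -0.63. Without control 5 as well it was 2 of 13, beside 2.25%, with a median of -0.21. Their part in the class II levels was not tested.

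**Figure D4:**
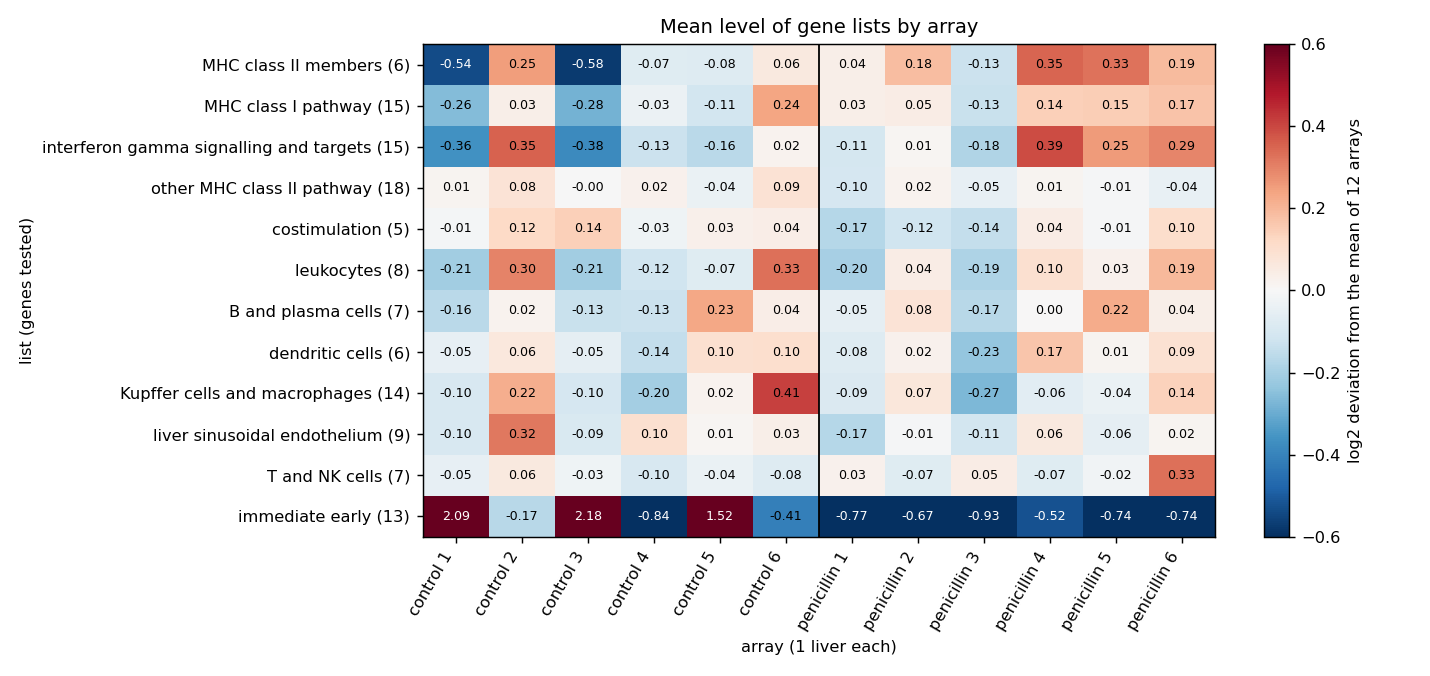
Mean log2 deviation of the tested genes of each list from their mean over the 12 arrays, with arrays in columns, lists in rows and the number of genes tested in parentheses; colours stop at 0.6 on either side, which the immediate early row exceeds. Control 1 and control 3 have the lowest values in the rows of MHC class II, MHC class I and interferon gamma and, by a margin of 0.01, in that of leukocytes, while control 5 shares their high immediate early value of 1.52 and not their low class II value.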

How the data were processed

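Liver RNA was hybridised to Affymetrix 3-prime expression arrays after labelling with biotin, per the labels' protocols. The deposited values are probeset intensities that the authors summarised by RMA, as the submitters' processing notes state; the sources used here do not give its software or settings. RMA makes the distributions of arrays alike, so a shift shared by most genes would be removed. The values came as linear intensities, of which log2 was computed here.

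Probesets were named from the platform annotation, with symbols updated through a RefSeq table (GRCm38.p6). Of 45037 probesets other than controls, 34945 had 1 gene, 932 several and 9160 none, and none was named from several. Probesets with a mean under the median of all (4.73) were left out, and each gene took its brightest probeset, giving 11899 genes. The test was limma 3.58.1 in R 4.3.3 (two-sided, Benjamini-Hochberg, threshold 0.05), checked on simulated data. The number of arrays limits the precision. Correlations used 100000 permutations.

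The members, the lists and the alternatives were chosen with earlier results of these data known. Genes named are the members, the 2 genes of each pathway list with the smallest p, the first 2 genes of each marker list, the 10 genes most like the members' mean, and Tap1, Fos and Cd79a; some items under this rule are not reported here. Other list genes were named for their role after their values were seen. Alternatives were other filters, normalizations, variance priors and probeset summaries, array weights, the replicate block and the omission of arrays.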

Additional observations from a re-analysis of the deposited data

How the results depend on the processing

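Over 23 alternatives, limma called 0 genes and 0 members in each, with the median difference over the members between 0.129 and 0.446. Leaving out 1 array at a time moved that median from 0.279 (without control 3) to 0.446 (without control 2), called 0 genes and 0 members, and left 671 to 1244 genes at an unadjusted p under 0.05, against 950 with all arrays. The differences of H2-Aa, H2-Ab1, H2-Eb1 and Cd74 stayed above 0 in every alternative run, the lowest being 0.062 for H2-Ab1 without control 1, control 3 and control 5. Ctss changed sign with array weights (0.039), and leaving out 1 array gave from -0.068 to 0.052, above 0 without control 2 (0.0012), control 6 (0.052) or penicillin 3 (0.024). H2-DMa changed sign on its dimmer probeset (-0.054). The causes were not tested. Labels give both groups the numbers 1 to 6 and name no pairing, so the main fit used none. Same-numbered arrays deviated together unevenly, with correlations from -0.255 to 0.385 and 3 of 6 control arrays closest to their own number. Whether this marks a pairing was not tested. In the H2 genes penicillin 1 and penicillin 3 were the lowest penicillin arrays, at 10.86 and 10.78 in H2-Aa and 9.51 and 9.29 in H2-Eb1. The labels do not say whether the numbers mark a shared factor. Omitting control 1 and control 3 left the penicillin arrays of the same numbers in. With the replicate block 0 genes and 0 members passed, and the median difference was 0.37. Under it 1214 genes and 5 of the 6 members had an unadjusted p under 0.05 (4 members without it), H2-Ab1 among them with a 95% interval of 0.16 to 0.65. The unadjusted limma p of these 5 ran from 0.0032 (H2-DMa) to 0.0062 (Cd74), and the adjusted p from 0.354 to 0.378. Detection calls were not used here, so levels near the filter, such as Ciita, cannot be told from background.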

Other observations

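Genes on either side of the contact between antigen-presenting cells and T cells gave few differences. Of 7 costimulation genes, 5 were tested: 1 was higher and 4 lower with penicillin, with a median of -0.06, and 0 passed. The median was -0.02, with 2 higher, without control 1 and control 3. Icam1, an adhesion molecule, had a control mean of 7.07 ± 0.27 and a penicillin mean of 6.62 ± 0.24 (SD, n = 6; difference -0.46, SE 0.14, limma adjusted p = 0.511), with every penicillin array below every control, as in 0.151% of all genes. Its difference was -0.54 without control 1 and control 3. Cd86 differed by -0.09 (SE 0.08), and by -0.02 without these arrays. Of 12 markers of T and NK cells, 7 were tested: 5 were higher and 2 lower, with a median of 0.07, and 0.06 without control 1 and control 3. Cd3d, a chain of the T cell receptor complex, differed by 0.23 (SE 0.08, limma adjusted p = 0.567) and Cd3e by 0.04. The list's deviation was highest in penicillin 6, at 0.33, and was -0.10 to 0.06 in the other arrays.

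Markers of neutrophils, bile duct cells and stellate cells were mostly lower by value, and 0 passed. Of 7 neutrophil markers, 4 were tested and all 4 were lower, with a median of -0.94. The calprotectin subunits S100a8 and S100a9 differed by -1.94 (SE 0.42) and -1.63 (SE 0.35). The other neutrophil markers tested differed less, Csf3r by -0.24 (SE 0.10) and Cxcr2 by -0.03 (SE 0.08). The median was -0.86 without control 1 and control 3. Of 7 bile duct markers, 4 were tested and all 4 were lower, with a median of -0.31, the same without these arrays, Krt7 at -0.22 and Krt19 at -0.36. Of 8 stellate cell markers, 7 were tested, with 1 higher and 6 lower: Lrat differed by 0.17 and Reln by -0.02. The median was -0.20, and -0.38 without control 1 and control 3. Without them 3 of the 7 were lower at an unadjusted p under 0.05, beside 2.66% of all genes.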
